A study of Mus musculus with 18 samples.

Results

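Cdkn1a, Mdm2, Ccng1, Btg2, Plk3, Gdf15, Zmat3, Aen, Phlda3, and Trp53inp1 are 10 genes known as transcriptional targets of the tumor suppressor p53. They were picked by symbol for that relation and found by their Ensembl IDs among the 29875 genes of the deposited count table, and all 10 passed the filter on low counts, as did 13844 genes in all. p53, encoded by Trp53, is a transcription factor that is kept scarce by the ubiquitin ligase MDM2 and accumulates when DNA is damaged or when cells are otherwise stressed. It then binds DNA as a tetramer and turns on genes that stop the cell cycle, repair DNA, start cell death, or, as Mdm2 does, shut p53 off again. Several of these genes, among them Cdkn1a, Gdf15, Plk3, and Btg2, are also known to respond to signals that do not pass through p53. Migration through tight spaces can damage DNA, so the levels of these genes were compared between dendritic cells (DCs) in collagen gels of increasing density and DCs without collagen.

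The DCs, which present antigens to T cells and follow the chemokine CCL19 to lymph nodes, were grown with GM-CSF from the bone marrow of wild-type C57Bl6/J mice aged 8 to 12 weeks and were matured on day 8 with LPS at 200 ng/ml for 24 hours. They were then loaded into migration chambers in bovine collagen at 1.7, 2.6, 3.5, or 4.4 mg/ml with a CCL19 source, or into the same chambers without collagen (suspension), and RNA was taken 5 hours after the gradient was set up. Each of the 4 densities and each of the 2 suspension groups, titled plus CCL19 and without CCL19, has 3 biological replicates, which gives 18 libraries. Whether CCL19 was present is stated in opposite ways by the title and the library name of all 6 suspension libraries. The names used here follow the titles, and an effect of CCL19 is not read from them. All groups share the GM-CSF culture and the LPS treatment, and no group of untreated or DNA-damaged cells is among them.

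Total counts ranged from 13062944 to 28059839 per library, and no pair of libraries was identical. Library names of same-numbered replicates share their opening part, which reads as a code, a digit, and a date. What these mark is not stated in the labels. Because of this shared part, each comparison was fitted without and with the replicate number as a block. The library names of replicate 2 begin with another code than those of replicates 1 and 3, which share theirs. The DC markers Cd74, the invariant chain of MHC class II, and Ccr7, the receptor for CCL19, had at least 8416 and 2342 CPM (counts scaled to library size) in each library. Markers of macrophages, neutrophils, eosinophils, and basophils or mast cells were also present. Xist, transcribed from the inactive X chromosome of female cells, had 380 to 5027 counts in the 12 libraries of replicates 1 and 2 and 0 counts in the 6 libraries of replicate 3, where Y-linked genes had 1066 to 5847 counts, although the study's methods name male mice. Each replicate number holds every group once.

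To show which members carry a p53 motif next to their start, the 250 bases before each annotated start were read from RefSeq (GRCm38.p6), where 8 of the 10 members have an entry. Both strands were searched for the p53 half-site, a motif of 10 bases of which p53 binds a pair. It occurred before Cdkn1a, Mdm2, Ccng1, and Aen, in 36.4% of the 11 windows of the members, compared with 7.13% of all 32851 windows and 24.1% of the 29 windows of other p53 targets. Another motif, the core pair, consists of CNNG with A or T at both inner places and a second such core after 6 bases. It overlapped the half-site before Cdkn1a and Aen and occurred in 5.83% of all windows. A match is a description of these letters and not a site shown to be bound, and the known p53 sites of Mdm2 in the first intron lie outside its window. The sequences are given 5′ to 3′ on the strand of the gene, with the half-sites and the core pair in capitals, because these are the windows that hold a half-site. They cover chr17:29090729-29090975 (plus strand) for Cdkn1a, chr10:117710759-117711008 (minus strand) for Mdm2, chr11:40755312-40755536 (minus strand) for Ccng1, and chr7:78895937-78895953 (plus strand) for Aen, where only the motif is shown.
Cdkn1a: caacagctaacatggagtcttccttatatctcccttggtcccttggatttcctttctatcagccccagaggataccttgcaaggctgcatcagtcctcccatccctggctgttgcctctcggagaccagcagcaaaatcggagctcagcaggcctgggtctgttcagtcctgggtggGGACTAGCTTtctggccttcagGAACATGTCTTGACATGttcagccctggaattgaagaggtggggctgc
Mdm2: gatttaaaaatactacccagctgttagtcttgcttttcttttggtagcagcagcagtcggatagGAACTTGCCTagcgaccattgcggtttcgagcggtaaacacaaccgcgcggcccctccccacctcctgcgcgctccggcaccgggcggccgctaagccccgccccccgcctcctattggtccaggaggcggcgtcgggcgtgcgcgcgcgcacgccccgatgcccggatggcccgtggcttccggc
Ccng1: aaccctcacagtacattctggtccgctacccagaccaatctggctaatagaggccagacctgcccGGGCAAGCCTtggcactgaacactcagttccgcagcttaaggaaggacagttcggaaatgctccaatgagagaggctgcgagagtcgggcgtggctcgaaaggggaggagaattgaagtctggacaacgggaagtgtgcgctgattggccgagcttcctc
Aen: GGGCTTGTCCGGGCAAG
The half-sites of Cdkn1a began 73 and 51 bases before the start that follows the window, that of Mdm2 186 bases, that of Ccng1 185 bases, and that of Aen 121 bases before it. Cdkn1a and Aen each have another annotated start. The windows before those starts (chr17:29093519-29093768 and chr7:78895677-78895926) held no half-site. The Aen motif lies inside the annotated span of Aen, which begins at 78895854. No half-site was found before Btg2, Plk3, Phlda3, or Gdf15, and the searched letters do not show whether p53 binds elsewhere at these genes.

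At the highest density, 4 of the 10 members were higher than in suspension, namely, Cdkn1a, Mdm2, Plk3, and Gdf15, and none was lower. Of all genes tested, 6.54% were higher and 8.3% were lower in that comparison. The median log2 fold change of the 10 members was 0.38, compared with 0.0051 over all genes. With the replicate block, the same 4 members were higher and Zmat3 and Aen were lower, against 15.7% of all genes higher and 16.1% lower. When all 4 densities were averaged, 2 of 10 members, Cdkn1a and Mdm2, were higher in collagen than in suspension and none was lower, where 7.73% of all genes were higher and 12.3% lower. With the block, Plk3 and Gdf15 were also higher and Aen was lower, where 15.5% of all genes were higher and 19.2% lower. The median fold change of the members in collagen was 0.43 on the log2 scale, compared with 0.0027 over all genes. Calls were made with edgeR's quasi-likelihood F-test at a false discovery rate (FDR) of 0.1, adjusted over all 13844 genes. Without replicate 2, no member passed in either comparison, while the number of all genes that passed fell from 2054 to 138 at 4.4 mg/ml and from 2768 to 632 in collagen. In bulk RNA, fewer cells of a type and less RNA per cell cannot be told apart.

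Markers of other cell types moved with these comparisons. The summed level of 8 eosinophil markers, led by Prg2, was 117 to 1339 CPM in suspension (median 342) and 13.98 to 168 CPM in collagen (median 43.0), and 7 of 7 tested markers were lower in collagen. At 4.4 mg/ml the sum was 25.6 to 168 CPM, and 6 of the 7 were lower. The markers Ear1, Il5ra, and Ccr3 were at 0 in at least 1 library. The summed level of 8 macrophage markers was 414 to 3562 CPM in suspension and 635 to 4773 CPM in collagen, with none called, and 5 higher with the block. At 4.4 mg/ml it was 1409.8 to 4469 CPM, with none called without the block and 6 of the 8 higher with it (median 1.49 on the log2 scale). Of 8 neutrophil markers, with sums of 779.6 to 9883 CPM in suspension and 1183 to 5344 CPM in collagen, Ly6g and Cxcr2 were lower. Of 6 markers of basophils and mast cells, with 69.2 to 157 CPM and 34.6 to 171 CPM, Kit was lower. Lymphocyte markers summed to 0.84 to 13.4 CPM. The sum of 8 DC markers was 15339 to 47445 CPM in suspension and 21642 to 51248 CPM in collagen, and Flt3 was lower. The share of counts from mitochondrial genes was 0.583 to 1.68% in suspension, 0.832 to 2.90% in collagen, and 0.832 to 2.90% (median 2.18%) at 4.4 mg/ml. The part of these differences in the levels of the p53 targets was not tested.

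**Figure D1:**
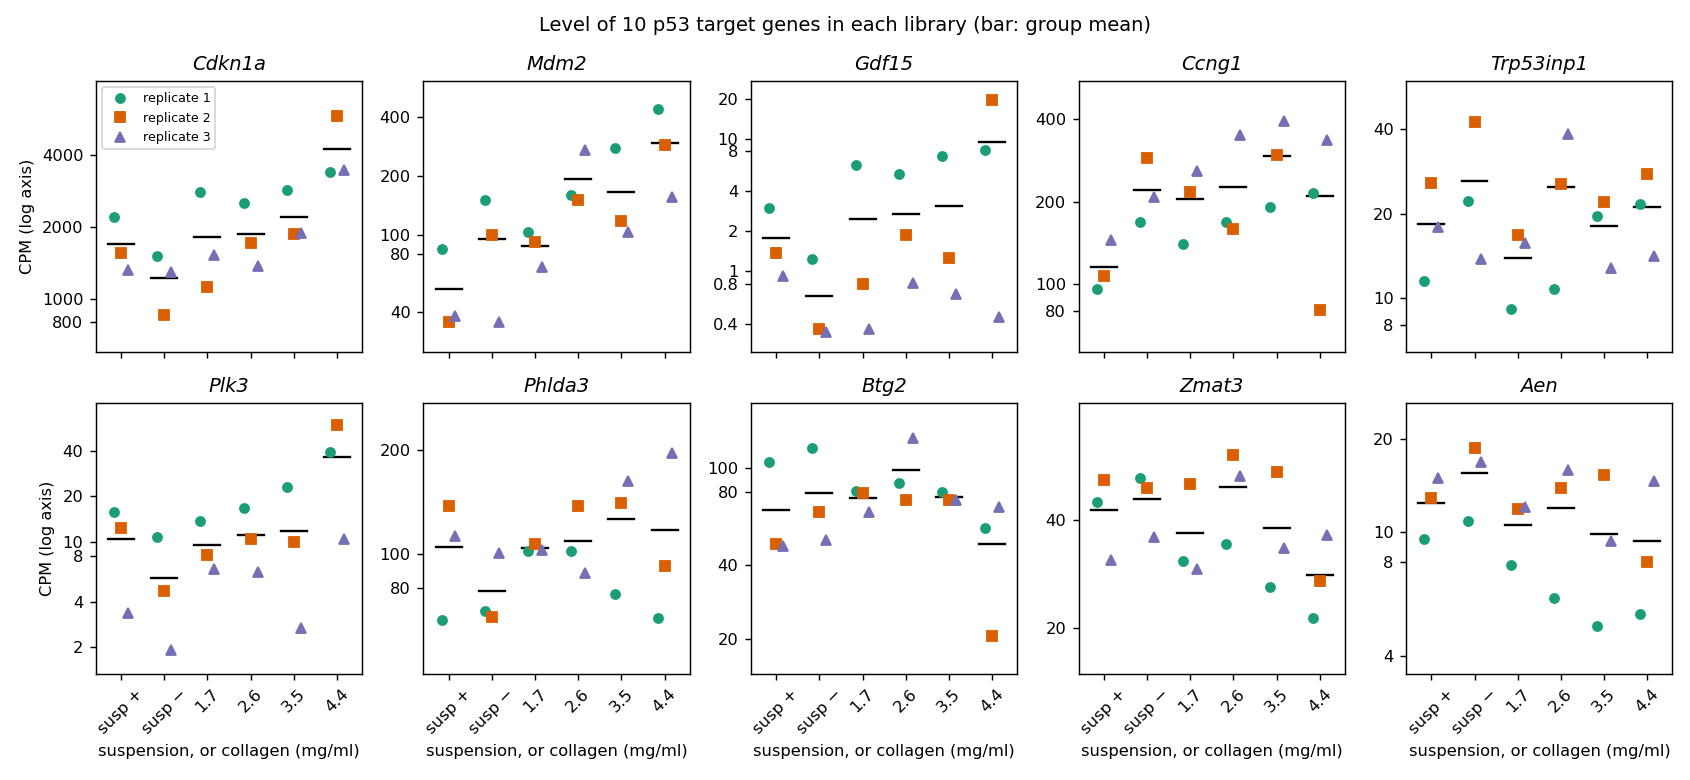
CPM of each member (log axis) in the 18 libraries, by group (susp + and susp −, suspension titled plus and without CCL19; numbers, collagen in mg/ml), where symbols mark replicates 1 to 3 and bars mark the mean of 3 libraries. The 3 libraries at 4.4 mg/ml lie above all 6 suspension libraries for Cdkn1a and Mdm2, as they do for 4.93% of all genes. Those of the other 8 members overlap with suspension.

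Mdm2 and Ccng1 act in the control of p53 itself. Mdm2 (ENSMUSG00000020184; chromosome 10 of GRCm38, 117688875 to 117710758, minus strand), whose protein marks p53 for degradation, had 84.6, 35.5, and 38.3 CPM in replicates 1, 2, and 3 of suspension titled plus CCL19 and 151, 99.1, and 35.6 CPM in those titled without CCL19. It had 104, 91.3, and 68.0 CPM at 1.7 mg/ml and 160.2, 151, and 271 CPM at 2.6 mg/ml. Its level was 277, 117, and 103 CPM at 3.5 mg/ml, compared with 439.7, 289, and 155 CPM at 4.4 mg/ml. All 3 libraries at 4.4 mg/ml were above all 6 suspension libraries, as for 4.93% of all genes, whereas those at 1.7 mg/ml lay within the range of suspension. The mean was 74.1 ± 46.8 CPM (SD, n = 6) in suspension and 294.9 ± 142 CPM (SD, n = 3) at 4.4 mg/ml. Compared with suspension, Mdm2 was higher by 2.05 on the log2 scale at 4.4 mg/ml (95% interval, 1.14 to 2.97; adjusted p = 0.00793) and by 1.26 in collagen as a whole (0.55 to 1.97; adjusted p = 0.0212). The difference at 4.4 mg/ml was 1.96, 2.28, and 2.07 within replicates 1, 2, and 3, so it varied little between them. Mdm2 was also the only member called at 2.6 mg/ml (1.45; adjusted p = 0.0749), where 4.32% of all genes were higher. At 3.5 mg/ml the value was 1.22 (adjusted p = 0.153), which passed with the block (1.22; adjusted p = 0.0219) beside 8.06% of all genes.

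Ccng1 (ENSMUSG00000020326; chromosome 11, 40748552 to 40755311, minus strand) encodes cyclin G1, which recruits a phosphatase that activates MDM2. Its level was 96.4, 107, and 145 CPM in suspension titled plus CCL19 and 169, 288, and 208 CPM in suspension titled without CCL19. It was 140.0, 216, and 259.9 CPM at 1.7 mg/ml and 168, 158, and 351 CPM at 2.6 mg/ml. At 3.5 mg/ml it was 192, 295, and 393 CPM, and at 4.4 mg/ml 215, 80.7, and 335 CPM. The collagen libraries thus spanned the suspension range on both sides, and the lowest value of all 18 libraries was replicate 2 at 4.4 mg/ml. The difference at 4.4 mg/ml from suspension was 0.39 on the log2 scale (95% interval, −0.41 to 1.19; adjusted p = 0.558), made of 0.75, −1.12, and 0.95 within the replicates. Without that library, it was 0.78 (adjusted p = 0.217), and it passed with the block added (0.76; adjusted p = 0.0351). In collagen as a whole the difference was 0.53 (adjusted p = 0.231), and without the same library it passed (0.62; adjusted p = 0.093). At 3.5 mg/ml, Ccng1 passed with the block alone (0.82; adjusted p = 0.076).

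Cdkn1a, Plk3, and Btg2 act on the cell cycle. Cdkn1a (ENSMUSG00000023067; chromosome 17, 29090976 to 29100727, plus strand) encodes p21, an inhibitor of cyclin-dependent kinases that halts the cycle. It had 2194, 1556, and 1322 CPM in suspension titled plus CCL19 and 1503, 851, and 1299 CPM in suspension titled without CCL19. It had 2794, 1119.5, and 1525 CPM at 1.7 mg/ml and 2506, 1718, and 1375 CPM at 2.6 mg/ml. At 3.5 mg/ml it had 2866, 1866, and 1879 CPM, and at 4.4 mg/ml 3384, 5837, and 3463 CPM. The 3 libraries at 4.4 mg/ml exceeded all of the other 15, and the mean of the log2 values rose at each density step, as it did for 3.56% of all genes and for no other member. From 1.7 to 2.6 mg/ml, however, the level rose in replicate 2 and fell in replicates 1 and 3. Means were 1454 ± 439.6 CPM (SD, n = 6) in suspension and 4228 ± 1394 CPM (SD, n = 3) at 4.4 mg/ml. Cdkn1a was higher by 1.56 on the log2 scale at 4.4 mg/ml than in suspension (95% interval, 0.89 to 2.23; adjusted p = 0.00703) and by 0.72 in collagen as a whole (0.21 to 1.23; adjusted p = 0.0576). The call in collagen was lost without the filter on low counts (adjusted p = 0.108), without replicate 2 (adjusted p = 0.337), and without replicate 3 (adjusted p = 0.185). In an exact permutation test over libraries, two-sided, the p for 4.4 mg/ml was 0.0119, the smallest that 84 splits can give, and it was 0.0238 for Mdm2 and 0.0595 for Plk3. These permutations did not keep the replicates together. The permutation test of collagen against suspension over 18564 splits gave p = 0.0347 for Cdkn1a and p = 0.00587 for Mdm2. An annotated gene on the other strand of Cdkn1a held at most 121 counts in a library, against at least 18323 for Cdkn1a.

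Plk3 (ENSMUSG00000028680; chromosome 4, 117128655 to 117133963, minus strand) encodes a stress-responsive kinase. It was a lowly expressed gene with 15.7, 12.2, and 3.40 CPM in suspension titled plus CCL19 and 10.8, 4.69, and 1.91 CPM in suspension titled without CCL19. It had 13.7, 8.13, and 6.62 CPM at 1.7 mg/ml, 16.7, 10.3, and 6.30 CPM at 2.6 mg/ml, and 22.9, 9.90, and 2.68 CPM at 3.5 mg/ml. The 4.4 mg/ml libraries had 38.9, 59.2, and 10.3 CPM, of which replicates 1 and 2 exceeded every other library and replicate 3 lay within the range of suspension. Replicate 3 was the lowest of the 3 in each of the 6 groups, so the spread between replicates was wide. The difference from suspension was 2.21 on the log2 scale at 4.4 mg/ml (95% interval, 0.87 to 3.56; adjusted p = 0.0391) and 1.57, 2.95, and 1.97 within the replicates. In collagen as a whole it was 0.90 (adjusted p = 0.243) without the block and 1.01 (adjusted p = 0.00748) with it. Without replicate 2 at 4.4 mg/ml, the difference at that density was 1.66 (adjusted p = 0.182), and 1.68 with the block added (adjusted p = 0.00234). A gene on the other strand, Tctex1d4, held at most 14 counts, and Plk3 held at least 33.

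Btg2 (ENSMUSG00000020423; chromosome 1, 134075170 to 134079120, minus strand), an antiproliferative gene that is also known as an immediate early gene, had 106, 48.8, and 48.1 CPM in suspension titled plus CCL19 and 121, 66.3, and 50.5 CPM in suspension titled without CCL19. In collagen it had 80.2, 79.2, and 66.0 CPM at 1.7 mg/ml and 87.2, 74.2, and 132 CPM at 2.6 mg/ml. It had 79.7, 73.8, and 73.7 CPM at 3.5 mg/ml and 57.0, 20.5, and 69.2 CPM at 4.4 mg/ml, the last being its lowest group. The difference in collagen was −0.02 on the log2 scale (95% interval, −0.56 to 0.53; adjusted p = 0.976), and its sign changed between settings. The value for 4.4 mg/ml was −0.58 (−1.37 to 0.21; adjusted p = 0.362). The replicates went different ways at 4.4 mg/ml, with −0.99, −1.47, and 0.49.

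Gdf15 (ENSMUSG00000038508; chromosome 8, 70629393 to 70632456, minus strand) encodes a secreted cytokine of the TGF-β family that is released by stressed cells. It rested on 6 to 228 counts per library. It had 3.02, 1.36, and 0.91 CPM in suspension titled plus CCL19 and 1.24, 0.36, and 0.35 CPM in suspension titled without CCL19. It had 6.32, 0.79, and 0.37 CPM at 1.7 mg/ml, 5.40, 1.88, and 0.82 CPM at 2.6 mg/ml, and 7.34, 1.26, and 0.67 CPM at 3.5 mg/ml. The 4.4 mg/ml libraries held 8.26, 19.5, and 0.45 CPM, so replicates 1 and 2 were above all suspension libraries and replicate 3 was among the lowest values. In replicate 3, all 6 libraries were under 1 CPM. The fitted difference at 4.4 mg/ml was 3.11 on the log2 scale (95% interval, 1.03 to 5.18; adjusted p = 0.0584), the largest of the 10 members and the one with the widest interval, and within the replicates it was 2.03, 4.55, and −0.29. Without replicate 2 at 4.4 mg/ml it was 2.01 (adjusted p = 0.29), and 1.08 with the block added (adjusted p = 0.135). The exact permutation test for 4.4 mg/ml gave p = 0.107. In collagen as a whole the difference was 1.78 (adjusted p = 0.149), which passed with the block (1.49; adjusted p = 0.0368).

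**Figure D2:**
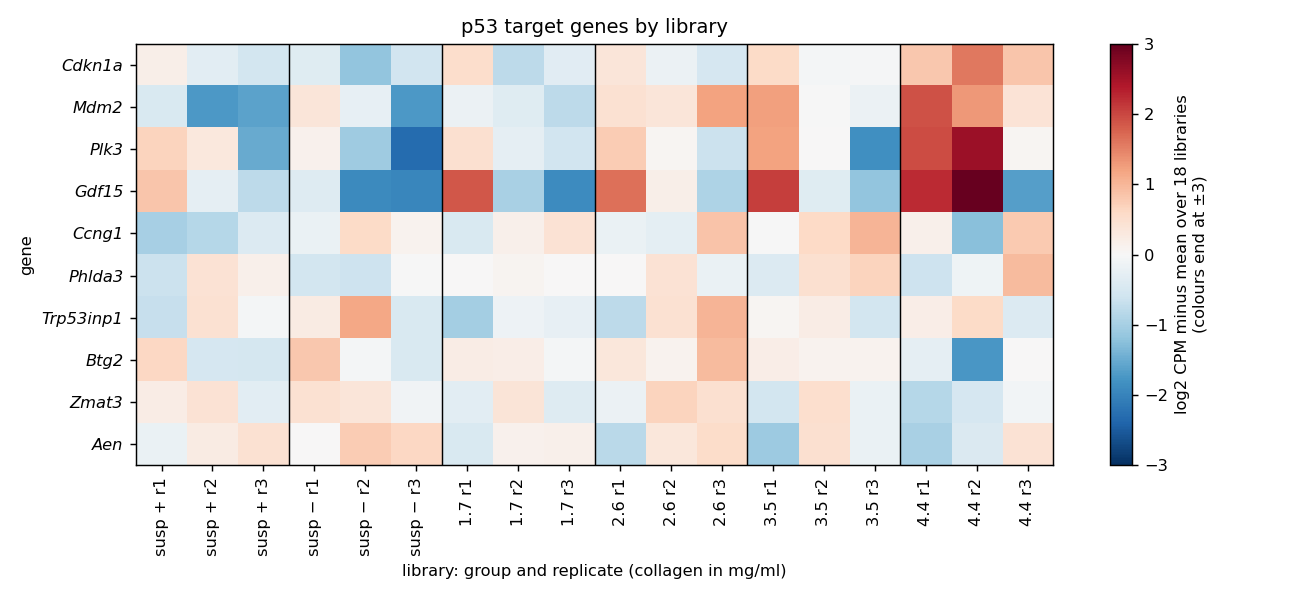
Log2 CPM of the members minus each gene's mean over the 18 libraries, with red for above and blue for below the mean and columns in the order of the groups and replicates (r1 to r3). Cdkn1a, Mdm2, and Plk3 are at or above their means in the 3 libraries at 4.4 mg/ml, and Gdf15 is above its mean in replicates 1 and 2 and below it in replicate 3.

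Aen, Phlda3, and Trp53inp1 are linked to cell death, and Zmat3 encodes an RNA-binding protein that acts on splicing. Aen (ENSMUSG00000030609; chromosome 7, 78895854 to 78911209, plus strand), a nuclease that degrades DNA in dying cells, had 9.50, 12.9, and 14.9 CPM in suspension titled plus CCL19 and 10.9, 18.6, and 16.9 CPM in suspension titled without CCL19. It had 7.86, 11.9, and 12.0 CPM at 1.7 mg/ml, 6.12, 13.9, and 15.9 CPM at 2.6 mg/ml, and 5.01, 15.2, and 9.38 CPM at 3.5 mg/ml. Its values were 5.46, 8.02, and 14.6 CPM at 4.4 mg/ml, and the groups overlapped. The difference from suspension was negative within all 3 replicates, both in collagen (−0.75, −0.38, and −0.32) and at 4.4 mg/ml (−0.89, −0.94, and −0.12). It was −0.41 on the log2 scale in collagen (95% interval, −0.997 to 0.17; adjusted p = 0.356) and passed with the block (−0.46; adjusted p = 0.0633). For 4.4 mg/ml it was −0.56 (adjusted p = 0.415) and passed with the block by a small margin (−0.62; adjusted p = 0.0987). With GC and length offsets beside the block, Aen did not pass in collagen (−0.25; adjusted p = 0.27) or at 4.4 mg/ml (−0.39; adjusted p = 0.258).

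Zmat3 (ENSMUSG00000027663; chromosome 3, 32334792 to 32366014, minus strand) had 44.9, 52.0, and 31.0 CPM in suspension titled plus CCL19 and 52.5, 49.3, and 36.1 CPM in suspension titled without CCL19. It had 30.9, 50.4, and 29.4 CPM at 1.7 mg/ml, 34.3, 60.9, and 53.4 CPM at 2.6 mg/ml, and 26.1, 54.5, and 33.4 CPM at 3.5 mg/ml. Its values at 4.4 mg/ml were 21.3, 27.1, and 36.3 CPM, the lowest group mean of the 6. The difference at 4.4 mg/ml from suspension was −0.65 on the log2 scale (95% interval, −1.30 to 0.00060; adjusted p = 0.202), and it passed with the block (−0.64; adjusted p = 0.08). With GC and length offsets beside the block it was −0.42 (adjusted p = 0.183), and within the replicates it was −1.18, −0.90, and 0.12. For this decrease, the exact permutation test over libraries gave p = 0.0476.

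Phlda3 (ENSMUSG00000041801; chromosome 1, 135766119 to 135769136, plus strand), a repressor of AKT signaling, ranged from 64.6 to 138 CPM in suspension (median 84.7) and from 65.5 to 195 CPM in collagen (median 103). Its values at 4.4 mg/ml were 65.5, 92.4, and 195 CPM, so the highest of its 18 values and one near the lowest came from the same group. The difference was 0.33 on the log2 scale in collagen (95% interval, −0.18 to 0.84; adjusted p = 0.407). Trp53inp1 (ENSMUSG00000028211; chromosome 4, 11156431 to 11174379, plus strand), which promotes apoptosis and autophagy, ranged from 11.5 to 42.4 CPM in suspension (median 20.0) and from 9.17 to 38.3 CPM in collagen (median 18.2). The difference was −0.20 in collagen (−0.81 to 0.42; adjusted p = 0.711) and −0.05 at 4.4 mg/ml (−0.93 to 0.83; adjusted p = 0.954). Neither gene passed in any of the comparisons, with or without the block.

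**Figure D3:**
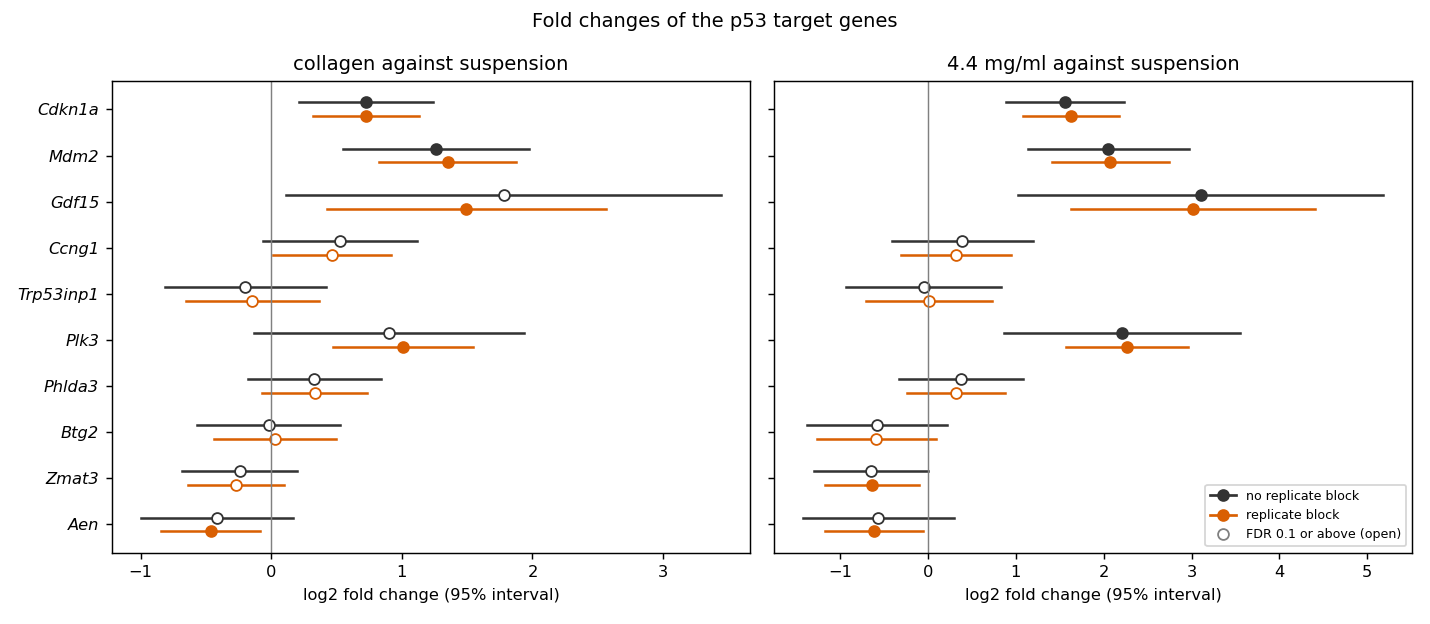
Log2 fold change of each member with its 95% interval for the mean of the 4 densities (left) and for 4.4 mg/ml (right) against suspension, without the replicate block (black) and with it (orange), where filled points passed an FDR of 0.1. At 4.4 mg/ml Cdkn1a, Mdm2, Gdf15, and Plk3 are filled in both fits, and Zmat3 and Aen are filled, on the negative side, in the fit with the block.

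Within collagen, density was tested as a linear trend over the 4 groups and as the difference between the ends of the series. Without the block no member passed either test, and 1 gene of all (0.00722%) passed each. The slope was 0.43 per mg/ml on the log2 scale for Cdkn1a (95% interval, 0.15 to 0.72; adjusted p = 0.427), 0.56 for Mdm2 (0.17 to 0.95; adjusted p = 0.464), 0.65 for Plk3 (0.07 to 1.24; adjusted p = 0.606), and 0.66 for Gdf15 (−0.22 to 1.55; adjusted p = 0.858). Their unadjusted p-values were 0.00541, 0.008, 0.03, and 0.133. With the block, Cdkn1a (0.47; adjusted p = 0.0676) and Plk3 (0.54; adjusted p = 0.0979) passed the trend test, where 0.809% of all genes passed with a rise. The slopes of Btg2, Zmat3, and Aen were negative (−0.25, −0.17, and −0.09) and did not pass.

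Between 4.4 and 1.7 mg/ml, Cdkn1a (1.34; adjusted p = 0.0605), Mdm2 (1.66; adjusted p = 0.0605), and Plk3 (1.71; adjusted p = 0.0662) were higher with the block, where 1.11% of all genes were. Without the block the values were 1.22 (adjusted p = 0.425), 1.75 (adjusted p = 0.423), and 1.93 (adjusted p = 0.551). Each of these 3 genes was higher at 4.4 than at 1.7 mg/ml within all 3 replicates, and so was Gdf15 (0.38, 4.44, and 0.23). The share of all genes with the same sign in all 3 replicates was not computed. Without replicate 2 at 4.4 mg/ml, no member passed the trend or the comparison of the ends, with or without the block. Of the 14368 genes tested then, 0 passed the trend without and 45 with the block. The comparison of the ends was passed by 1 gene without and 38 with it. Group means of log2 CPM were highest at 4.4 mg/ml for 4 of the 10 members (22.0% of all genes) and lowest there for 3, Btg2, Zmat3, and Aen (23.7% of all genes). All 3 libraries at 4.4 mg/ml exceeded all 6 of suspension for 2 members, compared with 4.93% of all genes, and all 3 were below for none, compared with 9.25%.

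The lowest density did not differ detectably. At 1.7 mg/ml no member passed against suspension with or without the block, where 0.0361% of all genes did without and 2.96% with it. The intervals there ranged from −0.35 to 1.03 for Cdkn1a, from −0.63 to 1.24 for Mdm2, and from −1.11 to 1.67 for Plk3. The differences found at 4.4 mg/ml (1.56, 2.05, and 2.21) lay outside them. The intervals of those differences began at 0.89, 1.14, and 0.87, however, and so overlapped those at 1.7 mg/ml. Both comparisons use the same 6 suspension libraries. For Gdf15 the interval at 1.7 mg/ml was −0.94 to 3.31, which holds the difference of 3.11 at 4.4 mg/ml. No member passed between the 2 suspension groups. None of all genes passed there in edgeR (0.0%), with 856 of 13844 at an unadjusted p under 0.05. Without the filter on low counts, edgeR called 10 genes, and DESeq2 called 0 genes without and 194 genes with the block, none of them a member. The log2 difference, plus minus without, was 1.41 for Gdf15 (95% interval, −1.19 to 4.002; adjusted p = 0.805), −0.93 for Ccng1 (−1.88 to 0.02; adjusted p = 0.762), and −0.85 for Mdm2 (−1.95 to 0.25; adjusted p = 0.762). A test of any difference among the 6 groups called Mdm2 (adjusted p = 0.0736) and Cdkn1a (adjusted p = 0.0863), where 4.9% of all genes passed. With the block it also called Plk3 (adjusted p = 0.00247) and Gdf15 (adjusted p = 0.0419), where 24.0% passed.

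One library weighed on several members. Replicate 2 at 4.4 mg/ml held the highest of the 18 values of Cdkn1a, Gdf15, and Plk3 and the lowest of Ccng1 and Btg2, and 10.4% of all genes had their highest and 11.9% their lowest value there. Without it, Cdkn1a (1.25; adjusted p = 0.0457) and Mdm2 (2.07; adjusted p = 0.0232) were still called at 4.4 mg/ml. Of the 14368 genes tested then, 730 were higher and 721 lower. With the block as well, Cdkn1a, Mdm2, Plk3, and Ccng1 were called as higher, where 1779 of these genes were higher and 1799 lower.

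Levels can be compared between members only per length. As CPM per kilobase of exon, averaged over the 18 libraries, Cdkn1a led with 611, followed by Phlda3 with 68.6, Ccng1 with 60.4, Mdm2 with 29.2, and Btg2 with 27.0. The others were lower, with Plk3 at 5.59, Zmat3 at 3.52, Trp53inp1 at 3.15, Aen at 2.00, and Gdf15 at 1.81. Between suspension and 4.4 mg/ml, the mean per kilobase of Mdm2 went from 14.6 to 58.0, close to that of Ccng1 (48.1 to 59.8), and that of Plk3 from 3.21 to 14.3.

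The level of Trp53 itself was 52.2 ± 8.58 CPM (SD, n = 6) in suspension, 68.8 ± 16.1 CPM (SD, n = 12) in collagen, and 78.8 ± 20.8 CPM (SD, n = 3) at 4.4 mg/ml. The difference was 0.39 on the log2 scale in collagen (adjusted p = 0.143) and 0.60 at 4.4 mg/ml (adjusted p = 0.118), and both passed with the block (0.37 and 0.57; adjusted p = 0.0774 and 0.0538). p53 is controlled mainly at the level of the protein, which was not measured. Of 16 genes for p53 and its regulators, 1 was higher in collagen, 3 were lower, and 12 did not pass (median 0.08 on the log2 scale), where 7.73% of all genes were higher and 12.3% lower. The 1 higher gene was Ppm1d (1.62; adjusted p = 0.00522), a phosphatase that switches off p53 signaling and is itself a p53 target. It had 20.2 ± 3.41 CPM (SD, n = 6) in suspension and 68.4 ± 46.7 CPM (SD, n = 12) in collagen. At 4.4 mg/ml it had 125 ± 47.6 CPM (SD, n = 3), and the difference was 2.64 (adjusted p = 0.00189). The lower genes in collagen were Prkdc (−1.46; adjusted p = 0.0199), the DNA-dependent kinase of end joining, Trp53bp1 (−0.80; adjusted p = 0.00733), a repair factor at double-strand breaks, and Chek2 (−0.80; adjusted p = 0.0627), a kinase that phosphorylates p53. At 4.4 mg/ml their differences were −1.79, −0.97, and −1.52. With the block, Trp53, Rpl11, and Usp7 were also higher in collagen and Atm was also lower, which makes 4 higher and 4 lower beside 15.5% and 19.2% of all genes. Without replicate 2, the genes of this list called without the block went from 4 to 1 in collagen and from 5 to 0 at 4.4 mg/ml. Rpl11 has near-identical pseudogenes, so its count is uncertain.

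Of 28 other p53 targets, 5 were higher in collagen than in suspension, 7 were lower, and 16 did not pass (median −0.12), where 7.73% of all genes were higher and 12.3% lower. With the block, 6 were higher and 8 lower, beside 15.5% and 19.2% of all genes. Those that rose included the death receptors Eda2r (2.04; adjusted p = 0.0416) and Fas (1.22; adjusted p = 0.0121) and the growth arrest gene Gadd45a (1.87; adjusted p = 0.00266), together with Plk2 and Pmaip1. Those that fell included Xpc (−1.27; adjusted p = 0.000752), which recognizes DNA damage for nucleotide excision repair, Pidd1 (−0.98; adjusted p = 0.00674), a scaffold for caspase-2, and Rrm2b (−0.92; adjusted p = 0.0685), a ribonucleotide reductase subunit, together with Ei24, Ephx1, Fdxr, and Sesn2. Xpc had 15.7 ± 4.57 CPM (SD, n = 6) in suspension and 3.85 ± 0.377 CPM (SD, n = 3) at 4.4 mg/ml, and Gadd45a had 6.26 ± 2.46 and 33.8 ± 11.7 CPM in the same groups. The same 5 targets were higher at 4.4 mg/ml, and Ei24, Pidd1, and Xpc were lower. Without replicate 2, the targets called went from 12 to 3 in collagen and from 8 to 1 at 4.4 mg/ml. The other targets therefore moved in both directions, and their median in collagen was −0.12, compared with 0.0027 over all genes.

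Of 13 cell cycle genes that fall when p53 is active, such as Mki67, none passed in collagen or at 4.4 mg/ml in edgeR. Their medians were −0.26 and −0.63, and with the block Plk1 was lower in both comparisons. DCs are known to be largely nondividing. Among 7 genes of the integrated stress response, known to raise Gdf15, Atf4, its central transcription factor, was higher in collagen (1.47; adjusted p = 0.0142), and Asns, an asparagine synthetase, was lower (−0.63; adjusted p = 0.0688). At 4.4 mg/ml, Atf4 (2.08; adjusted p = 0.0103) and Ppp1r15a were higher and Chac1 was lower. With the block, Atf3 and Ddit3 were also higher at 4.4 mg/ml, and in collagen Atf3, Atf4, Ddit3, and Ppp1r15a were higher and Asns and Chac1 lower. Without replicate 2, none of the 7 passed in either comparison. Of 9 immediate early genes, which respond within minutes to many stimuli, all 9 were higher at 4.4 mg/ml (median 2.77), where 6.54% of all genes were, and 2 in collagen as a whole, namely, Ier3 (1.86; adjusted p = 0.0411) and Jun (0.62; adjusted p = 0.0809). With the block, all 9 were higher in collagen, where 15.5% of all genes were. Without replicate 2, none of the 9 passed at 4.4 mg/ml, and without the 4.4 mg/ml library of that replicate 6 did.

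**Figure D4:**
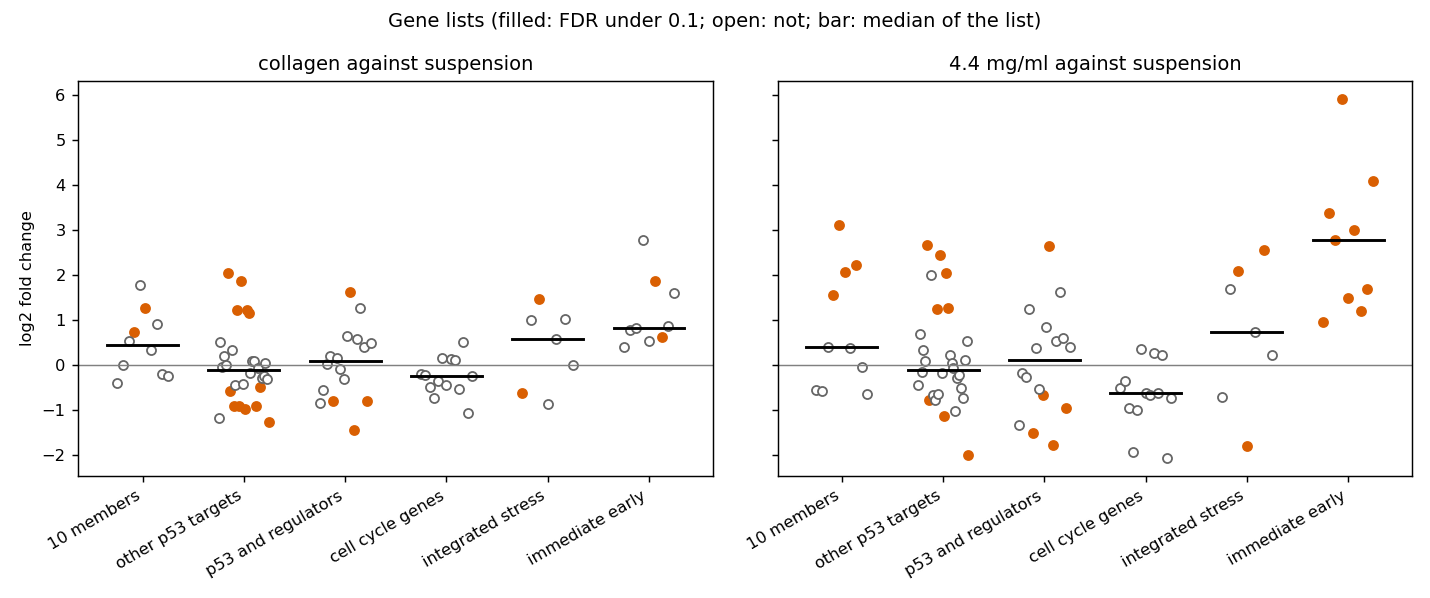
Log2 fold change of each gene in the 10 members and the other lists, for the mean of the 4 densities (left) and for 4.4 mg/ml (right) against suspension, with filled points for genes that passed an FDR of 0.1 and bars for the median of each list. The other p53 targets lie on both sides of 0, with a median of −0.12 in both panels, whereas all 9 immediate early genes are filled and positive at 4.4 mg/ml.

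To name the genes whose pattern over the 6 groups was most like those of Cdkn1a and Mdm2, the root mean square difference between centered group means of log2 CPM was computed for all genes tested. For Cdkn1a these were Rgs2, a regulator of G protein signaling (0.10), the predicted gene Gm12403 (0.12), and the ubiquitin-conjugating enzyme Ube2s (0.12), where the median over all other genes was 0.64. For Mdm2 these were the RNA helicase Ddx3x (0.06), the interferon-induced GTPase Gbp6 (0.07), and Rsbn1 (0.07), where the median was 0.88. Rgs2 had mean levels of 37.4 and 29.7 CPM in the suspension groups titled plus and without CCL19, 38.1, 36.6, and 51.5 CPM at 1.7, 2.6, and 3.5 mg/ml, and 102 CPM at 4.4 mg/ml. Ddx3x had 63.6, 113, 107, 240.3, 186, and 369 CPM in the same order, which follows Mdm2 (52.8, 95.3, 87.6, 194, 166, and 294.9 CPM) through the lower mean at 3.5 than at 2.6 mg/ml. Counts of Gbp6, a member of a family of similar genes, and of Gm12403 are uncertain, because how reads with several matching genes were counted is not given in the sources used here. These are descriptions of 6 group means.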

How the data were processed

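The authors aligned single-end reads of 50 bases from stranded mRNA libraries with STAR (2.7.0f, in the submitters' processing notes) to GRCm38. The deposited values are raw counts, whole numbers listed by Ensembl ID. The study's methods name RSEM for TPM, which were not used, and the tool that gave the deposited counts is not given in the sources used here. Symbols, coordinates, and exon lengths came from GENCODE M21 (GRCm38), which matched 29866 of 29875 genes.

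Groups and replicates follow the labels. Counts were filtered with filterByExpr, scaled with TMM, and tested over all 18 libraries in a single fit with edgeR 4.0.16 (quasi-likelihood F-test, R 4.3.3). The threshold was an FDR of 0.1 (Benjamini-Hochberg). The comparisons were any difference, collagen against suspension, the density trend, 4.4 against 1.7 mg/ml, every single density against suspension, and one suspension group against the other. CPM used TMM-scaled library sizes, and log2 CPM a prior count of 2. The replicate block was an alternative. Its pairing comes from the opening part of the library names that same-numbered libraries share. The mean correlation of deviations from group means, across genes, was 0.434 for 45 same-number pairs and −0.214 for 90 other pairs. Other alternatives were DESeq2 1.42.0, its size factors in edgeR, no filter, the groups compared alone, GC and length offsets, an FDR of 0.05, and leaving out replicates. Permutation tests were exact and two-sided.

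The members, the gene lists, and the alternatives were chosen with earlier results of these data known. Named were the 10 members, Trp53, up to 3 genes per list and direction with the largest change in collagen among called genes whose sign agreed in 3 of 3 replicates, and the 3 genes nearest in profile to Cdkn1a and to Mdm2. Ppp1r15a, Chac1, Plk1, and other genes given without values or as markers were named for their calls after these were seen. Biological variation (edgeR's coefficient) came to 49% without and 33.1% with the block. A count of 3 equals between 0.0941 and 0.256 CPM, depending on the library, and this covers counting error only. The fits were also run on simulated counts, whose spread between libraries was a fixed setting and not that of these libraries. This does not test the calls made here.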

Additional observations from a re-analysis of the deposited data

How the results depend on the processing

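The number of members called changed with the replicate block, which is the pairing by replicate number, and with the omission of replicate 2. So did the number of all genes called, out of 13844 tested, 29875 without a filter, and 14368 without replicate 2 at 4.4 mg/ml. For any difference the number of members was 2 without and 4 with the block, 5 with DESeq2 and the block, 4 without a filter, 4 with GC and length offsets and the block, 4 with the block and without replicate 2 at 4.4 mg/ml, and 0 at an FDR of 0.05. All genes called in the same order were 678, 3324, 5298, 1993, 3706, 3511, and 336. For collagen against suspension the number of members was 2, with 5 under the block, 6 with DESeq2 and the block, 6 with the block and without replicate 2 at 4.4 mg/ml, 4 with GC and length offsets and the block, 3 without a filter (Plk3, Mdm2, and Gdf15), and 1 at an FDR of 0.05. In that order, 2768, 4808, 5381, 5386, 5128, 2715, and 1808 of all genes were called. For the density trend the number of members was 0, with 2 under the block, 4 with DESeq2 and the block, 2 without a filter, and 3 with offsets and the block. All genes called were 1, 201, 811, 139, and 710 in that order. For 4.4 against 1.7 mg/ml the number of members was 0, with 3 under the block, 1 with DESeq2, 4 with DESeq2 and the block, 2 without a filter, and 4 with offsets and the block. In that order, 1, 233, 147, 918, 151, and 932 of all genes were called. At 2.6 mg/ml the number of members was 1, with 0 when only the groups compared were fitted, 2 with the block and without replicate 2 at 4.4 mg/ml, 4 with offsets and the block, and 0 at an FDR of 0.05. All genes called were 1095, 256 (of 13261 tested), 3628, 3365, and 455 in that order. At 3.5 mg/ml the number of members was 0, with 2 under the block, 1 with DESeq2, 2 with DESeq2 and the block, 1 without a filter, 1 with offsets, 3 with offsets and the block, and 3 with the block and without replicate 2 at 4.4 mg/ml. In that order, 672, 2552, 1343, 3200, 706, 638, 2585, and 3141 of all genes were called. At 4.4 mg/ml the number of members stayed between 3 and 6 in every alternative that kept all libraries, and at 1.7 mg/ml and between the suspension groups it was 0 in every alternative. In the alternatives that kept all libraries, 1224 to 5022 of all genes were called at 4.4 mg/ml. At most 1095 were called at 1.7 mg/ml and 194 between the suspension groups. When a replicate or the 4.4 mg/ml library of replicate 2 was left out of the fit without the block, the number of members ranged from 0 to 2 for any difference, from 0 to 3 for collagen, between 0 and 1 at 2.6 mg/ml, and between 0 and 4 at 4.4 mg/ml, and it was 0 without replicate 2 in each. The number of all genes ranged from 0 to 626, from 632 to 2952, from 0 to 1337, and from 138 to 1643 in that order. Without replicate 3 the number of members was 0 for any difference, 1 for collagen, and 0 at 2.6 mg/ml, beside 0, 1455, and 4 of all genes.

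Signs changed in values that did not pass. The log2 difference of Btg2 in collagen was 0.030 with the block, 0.016 with DESeq2 or its size factors, 0.064 with DESeq2 and the block, 0.0030 with offsets, 0.037 with offsets and the block, and 0.11 with the block and without replicate 2 at 4.4 mg/ml, and it ranged from −0.36 to 0.44 when replicates were left out. That of Trp53inp1 at 4.4 mg/ml was 0.0079 with the block, 0.026 with DESeq2 or its size factors, 0.073 with DESeq2 and the block, 0.18 with offsets, 0.090 with offsets and the block, and 0.011 with the block and without replicate 2 at 4.4 mg/ml, with a range of −0.29 to 0.15. With replicates left out, Trp53inp1 ranged from −0.39 to 0.092 and Zmat3 from −0.42 to 0.046 in collagen. The 4.4 mg/ml value of Ccng1 lay between −0.044 and 0.86 and that of Phlda3 between −0.064 and 0.58, and the slope of Ccng1 ranged from −0.027 to 0.18 and that of Phlda3 from −0.15 to 0.21. Of the values of single members under the alternatives, 387 were on the same side of the threshold with the same sign, 51 passed newly, 17 no longer passed, and 25 changed sign. The cause of these changes was not tested. Any difference and collagen against suspension use every library, so fitting the groups compared alone gave no other value for them. Gdf15, with as few as 6 counts in a library, had the widest interval.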
